A study of Arabidopsis thaliana with 13 samples.

Results

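Etiolated Arabidopsis thaliana seedlings of the ethylene receptor mutant etr1-1 were compared with wild type after both had been treated with pifithrin-alpha (PFT-alpha). The comparison rests on 2 etr1-1 and 3 wild-type libraries, chosen by genotype and treatment label, 5 of 13 libraries in all. After 6 h in white light all seedlings were kept dark at 22 °C, and on day 4 they were placed for 4 h in liquid medium that held PFT-alpha at 30 µM. PFT-alpha is a small molecule best known as an inhibitor of the animal protein p53. Wild type is Col-0. The other groups, set beside the comparison, are wild type with 1‰ DMSO (mock, 3 libraries), wild type with 10 µM ACC (3 libraries) and etr1-1 with DMSO (2 libraries). ACC is the compound that plants turn into ethylene. Each library holds polyadenylated RNA of whole seedlings, so cotyledons, hypocotyl and root are mixed, and fewer cells of a type and less RNA per cell cannot be told apart. The labels do not say how many seedlings entered a library or whether etr1-1 seedlings came from 1 seed batch.

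ETR1 is a membrane receptor that binds ethylene. Without the hormone the receptors keep the kinase CTR1 active, and CTR1 holds back EIN2. When ethylene binds, the receptors and CTR1 are switched off, EIN2 signals to the nucleus, and the transcription factors EIN3 and EIL1 turn on ethylene-responsive genes. The etr1-1 allele is a single amino acid change that stops ETR1 from binding ethylene, so the receptor stays on and dominantly blocks the response. In dark-grown seedlings this pathway shortens the hypocotyl and tightens the apical hook. The comparison asks how seedlings with the altered receptor differ from wild type when both have the compound.

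Values are TPM, each transcript's share of a library after correction for transcript length. Estimated depth was 20.1 to 29.4 M fragments in the 5 libraries, and 19094 to 19854 features per library reached 1 TPM. Differences are given as log2(TPM + 1), etr1-1 minus wild type, with a standard error (SE), and a feature was called at an adjusted p under 0.05 in limma. Wild-type replicate 3 stood apart from the other libraries in all 3 treatments. On the first principal component (48.8% of the variance) these 3 libraries lay at 72.2 to 85.8 and the other 10 at -35.5 to -10.4. Wild-type PFT-alpha replicate 3 had summed root hair transcripts of 6.44 TPM against 46.5 and 48.3 TPM in its 2 sister libraries, with 3 of 13 root hair genes at 0. It had summed antenna, Rubisco and greening transcripts of 80636 TPM against 31764 and 33479 TPM. The fit therefore holds a term for replicate 3, estimated over the 3 wild-type groups, and calls that change are named below without wild-type PFT-alpha replicate 3. The library labelled etr1-1 mock 1 lay with ACC-treated wild type on the second component (-32.1 against -38.8, -38.7 and -15.3), while etr1-1 mock 2 lay with the etr1-1 PFT-alpha libraries (41.3 against 41.8 and 44.3). Neither mock library of etr1-1 entered the fit, because earlier results of these data showed them to differ from each other. The SE and adjusted p below therefore leave out the spread between these 2 libraries. With all 13 libraries and the replicate 3 term, 9 features were called.

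Of 20836 tested features 846 (4.06%) differed between etr1-1 and wild type under PFT-alpha, 505 higher (2.42%) and 341 lower (1.64%) in etr1-1. Among the gene lists the highest median was that of seed storage and oil body transcripts, 10 of 11 of them higher, and the lowest that of low oxygen genes, 7 of 12 of them lower. Of the ethylene perception genes 4 of 14 were lower and of the ethylene-induced genes 4 of 23, by smaller amounts. Without wild-type PFT-alpha replicate 3 there were 596 calls (2.87%), 375 higher (1.81%) and 221 lower (1.07%), and 543 of the 846 were among them. In the 5 libraries alone, with no replicate term, limma called 7 features (0.0347%), 6 higher (0.0298%) and 1 lower (0.00496%), with 1518 at an unadjusted p under 0.05, and no member of any gene list was among the 7. No list member was called in the 11 libraries with no replicate term (96 calls). The same held with all 13 libraries and the term (9 calls), so every list call below depends on these 2 choices. Without etr1-1 replicate 1 or 2 there were 245 and 223 calls, without wild-type PFT-alpha replicate 1 or 2 there were 370 and 398, and 172 of the 846 were called in each of the 11 fits that left out 1 library. Where an etr1-1 library is left out, here and below, 1 remains, and it is assumed to vary like the wild-type libraries, which alone give the spread. Both etr1-1 libraries lay above all 3 wild-type libraries in 3198 features (15.3%) and below them in 3481 (16.7%). A lack of overlap in a gene named below is to be read beside these shares.

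**Figure D1:**
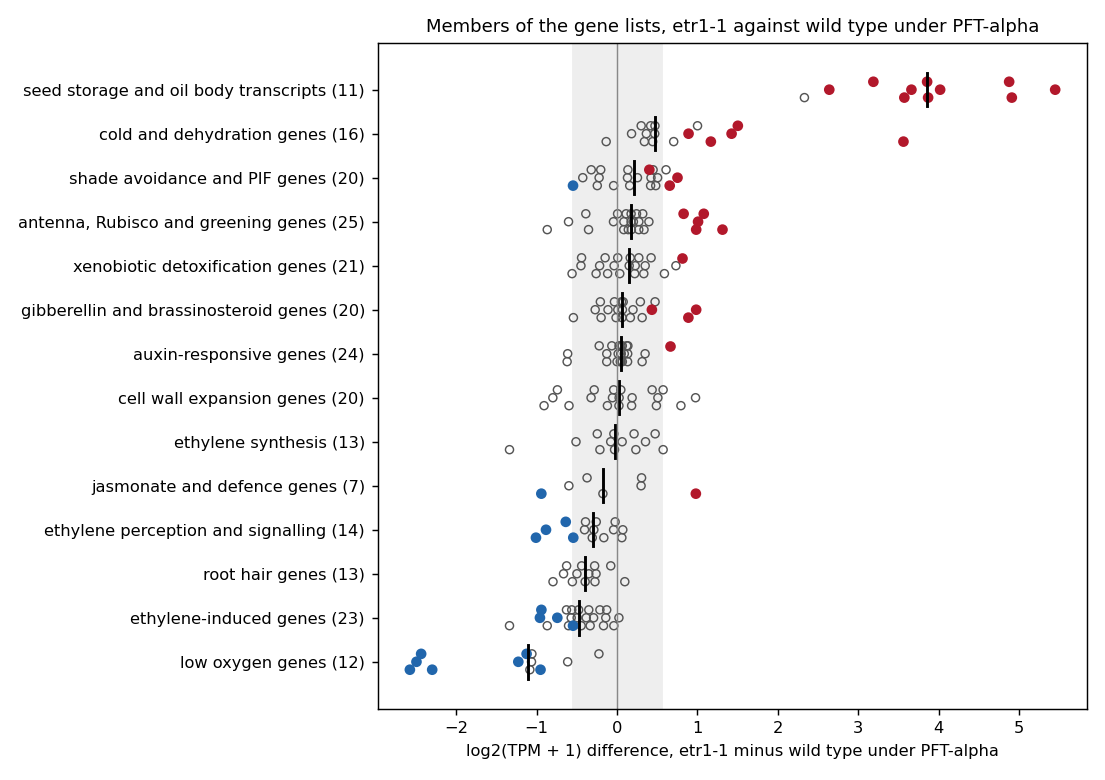
Difference between etr1-1 and wild type under PFT-alpha (log2(TPM + 1), horizontal axis) for every tested member of 14 gene lists, with the number of members in brackets; filled points were called (red higher, blue lower), open points were not, black bars are medians and the grey band holds 90% of all tested features. Seed storage and oil body transcripts lie from 2.33 to 5.45, and low oxygen genes from -2.58 to -0.22.

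Seed storage proteins and the oleosins that coat oil bodies are laid down while the embryo matures and are used up after germination. Of 11 such genes 10 were higher in etr1-1 and 0 lower, with a median log2 difference of 3.86 against -0.04 over all tested features. In the 5 libraries alone, with no replicate term, that median was 3.085 against 0.0131 over all tested features, and none of the 10 was called. None was called in the 11 libraries with no term (lowest adjusted p = 0.101) or in all 13 with the term (lowest 0.0799). CRA1, a 12S globulin (cruciferin), measured 2962 and 2665 TPM in the 2 etr1-1 libraries and 167, 411 and 689 TPM in the 3 wild-type libraries. The etr1-1 libraries were both above all wild-type libraries, and the difference was 3.66 (SE 0.56, adjusted p = 0.00614, and 3.42 with adjusted p = 0.0201 without wild-type replicate 3). SESA5, a 2S albumin, measured 833 and 1316 TPM in etr1-1 and 17.2, 14.4 and 394 TPM in wild type. Its groups did not overlap either, with replicate 3 the highest of the wild-type libraries (log2 5.45, SE 0.53, adjusted p = 0.000516, and 5.97 with adjusted p = 0.000221 without replicate 3). OLEO1, an oleosin, measured 125 and 167 TPM in etr1-1 and 4.74, 10.96 and 71.5 TPM in wild type (log2 4.02, SE 0.46, adjusted p = 0.00122, and 4.14 with adjusted p = 0.00433 without replicate 3).

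The members differed in how evenly the 2 etr1-1 libraries carried them. CRU3, another cruciferin, was at 1347 and 1302 TPM in etr1-1, and OLEO2 at 78.5 and 110 TPM. SESA2, a 2S albumin of a tandem cluster, was at 47.7 and 221 TPM, and its wild-type libraries were at 1.12, 1.16 and 134 TPM. SESA1 of the same cluster was the member not called, at 1.35 and 50.6 TPM in etr1-1 against 0.80, 0.41 and 138 TPM in wild type (log2 2.33, adjusted p = 0.388). SESA1 to SESA4 lie side by side and are alike in sequence, so fragments may be split between them and their single values are uncertain. For SESA1 to SESA4 and CRU2 the groups overlapped, because wild-type replicate 3 lay between or above the etr1-1 libraries. Summed over the 11 genes, etr1-1 reached 5574 and 6198 TPM and wild type 289, 611 and 2204 TPM under PFT-alpha. Outside the comparison, etr1-1 mock 2 reached 5071 TPM, the library labelled etr1-1 mock 1 reached 398 TPM, and wild-type mock and ACC libraries ranged from 289 to 3203 TPM, with replicate 3 highest in both. Under PFT-alpha the mean log2(TPM + 1) of the 11 genes was 6.28 and 7.62 in etr1-1 and 2.88, 2.90 and 6.42 in wild type. On that scale wild-type replicate 3 lay between the etr1-1 libraries. Without wild-type PFT-alpha replicate 3, 8 of the 10 calls remained, and CRU2 and SESA3 were lost (adjusted p = 0.0651 and 0.0513). Without etr1-1 replicate 1 there were 8 and without replicate 2 there were 5, with a median of 4.18 and 3.71, and without wild-type replicate 1 or 2 there were 7 each.

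**Figure D2:**
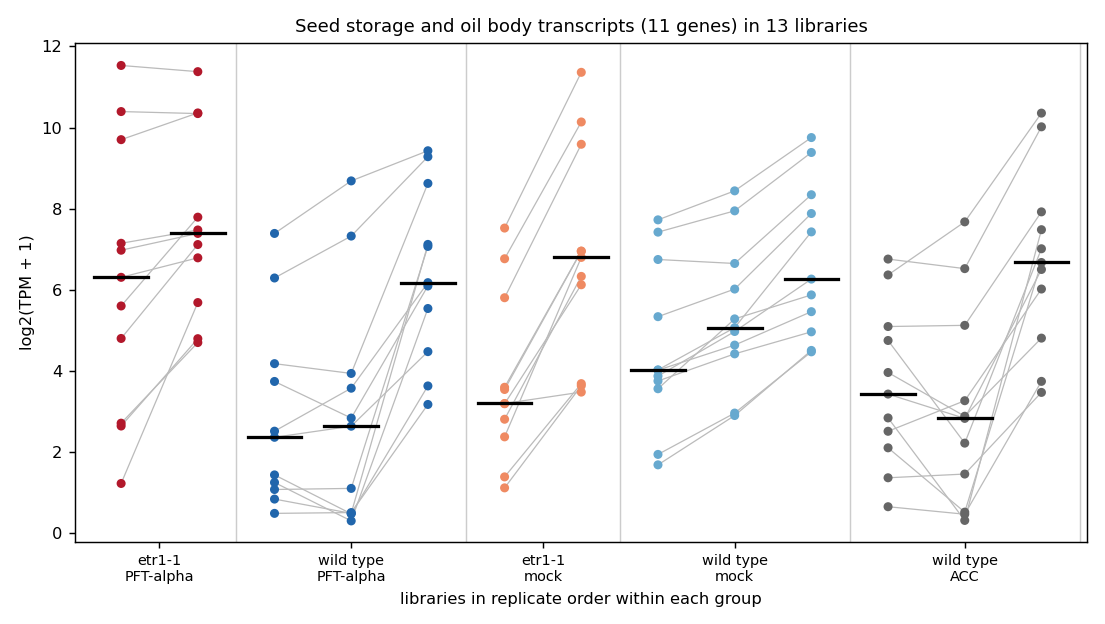
Level of 11 seed storage and oil body transcripts (log2(TPM + 1)) in all 13 libraries, in replicate order within each group; grey lines join the values of a gene, and black bars are the median of each library. Both etr1-1 PFT-alpha libraries, etr1-1 mock 2 and the 3 wild-type replicate 3 libraries carry high levels, and summed TPM of the 5 libraries compared were 5574 and 6198 in etr1-1 and 289, 611 and 2204 in wild type.

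The 12 largest higher differences, by the rule for named features, were led by a gene outside the fixed lists. AT5G35660, a glycine-rich protein, measured 661 and 844 TPM in etr1-1 and 11.97, 12.8 and 148 TPM in wild type (log2 5.67, SE 0.29, adjusted p = 3.58e-05, and 5.8 with adjusted p = 0.000221 without replicate 3). AT5G50700, annotated as hydroxysteroid dehydrogenase 1 and related to oil body proteins called steroleosins, measured 83.4 and 79.3 TPM in etr1-1 and 0, 2.20 and 0.21 TPM in wild type. It was nearly absent from wild-type replicate 3 too (log2 5.48, SE 0.74, adjusted p = 0.00283, and 0.0109 without that library). EM1 and GEA6 (also called EM6), late embryogenesis proteins that protect drying seeds, measured 173 and 213 TPM and 348 and 314 TPM in etr1-1. In wild type EM1 was at 4.34, 11.9 and 29.2 TPM and GEA6 at 12.3, 20.6 and 44.9 TPM (log2 4.56 and 4.20, adjusted p = 0.00264 and 0.00963). The rule for these 12 takes only called features whose groups do not overlap. AT2G42560, a late embryogenesis abundant protein, measured 54.6 and 50.3 TPM in etr1-1 and 0.90, 1.44 and 4.02 TPM in wild type (log2 4.58, SE 0.29, adjusted p = 8.53e-05). The others were SESA5, AT2G05580 (glycine-rich), AT1G68250, NSP2 (a nitrile specifier protein that steers glucosinolate breakdown), PDF2.1 (a small cysteine-rich peptide), AtMT4a (a metallothionein) and ATECP31 (a seed maturation protein), at log2 4.29 to 5.45. All 12 were called without wild-type PFT-alpha replicate 3, and 9 each without etr1-1 replicate 1 or 2.

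Protein families and annotated processes were picked for counting after the values were seen. Of 9 tested genes with the LEA_4 domain 7 were higher and 0 lower, and of 4 with the SMP (seed maturation protein) domain all were higher. Of 14 oleosins 6 were higher and 2 lower. Of 378 genes annotated to the response to abscisic acid, the hormone of seed maturation and drought, 42 were higher and 7 lower with a median log2 of 0.02, where 2.42% of all tested features were higher and 1.64% lower. The response to water deprivation had 31 higher and 4 lower of 321, seed germination 11 and 0 of 74, lipid storage 8 and 2 of 25, the response to desiccation 7 and 0 of 20 and seed oilbody biogenesis 6 and 0 of 8. Cupin_1 proteins, which include the cruciferins, had 7 higher and 2 lower of 28 with a median of -0.03, the Tryp_alpha_amyl family, which includes the 2S albumins, 9 and 1 of 51, and the PP2C phosphatases 7 and 0 of 72. Chlorophyll-binding antenna proteins (Chloroa_b-bind) had 5 higher and 0 lower of 28, and the response to hypoxia 0 higher and 8 lower of 38 with a median of -0.12.

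Abscisic acid and seed maturation regulators are known to act through short promoter elements. The RY element (CATGCA, or TGCATG on the other strand) is bound by B3 factors of the seed, and the ABRE core (ACGTG, or CACGT) by bZIP factors. The 250 bases before the annotated start of each gene were read from RefSeq's TAIR10.1 assembly and searched for both on both strands. An RY element was in 10 of 11 seed storage and oil body promoters (90.9%), against 1600 of 20568 tested features with such a window (7.78%). An ABRE core was in 7 of the 11 (63.6%), against 4828 of the 20568 (23.5%). Among features called higher the shares were 17.7% for RY and 43.9% for ABRE, and among those called lower 11% and 26.4%. Of the 12 largest higher differences 3 held an RY element and 7 an ABRE core, and of the 12 low oxygen genes 1 and 3. A match describes letters in the window and does not show a bound site, and the palindromes CACGTG and CATGCATG each count on both strands. Shown are 5 of these windows, 4 of seed storage and oil body genes and 1 of a late embryogenesis gene, since they show both elements, only RY, and only ABRE. They read 5′ to 3′ toward the gene, with RY elements and ABRE cores in capitals. SESA5 lies on chromosome 5 on the minus strand (window chr5:22239188-22239437), CRA1 on chromosome 5 on the minus strand (chr5:17758337-17758586), CRU3 on chromosome 4 on the plus strand (chr4:14087306-14087555), OLEO1 on chromosome 4 on the plus strand (chr4:12900180-12900429) and AT2G42560 on chromosome 2 on the minus strand (chr2:17716913-17717162).
SESA5: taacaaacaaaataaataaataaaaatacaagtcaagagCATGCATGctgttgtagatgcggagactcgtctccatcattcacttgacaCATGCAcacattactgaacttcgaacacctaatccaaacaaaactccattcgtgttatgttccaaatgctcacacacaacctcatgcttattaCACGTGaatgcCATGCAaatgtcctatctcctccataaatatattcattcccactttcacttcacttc
CRA1: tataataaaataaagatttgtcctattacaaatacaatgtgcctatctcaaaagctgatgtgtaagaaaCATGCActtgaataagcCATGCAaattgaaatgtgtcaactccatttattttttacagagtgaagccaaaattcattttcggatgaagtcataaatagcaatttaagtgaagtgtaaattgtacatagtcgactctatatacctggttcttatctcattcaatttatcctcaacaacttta
CRU3: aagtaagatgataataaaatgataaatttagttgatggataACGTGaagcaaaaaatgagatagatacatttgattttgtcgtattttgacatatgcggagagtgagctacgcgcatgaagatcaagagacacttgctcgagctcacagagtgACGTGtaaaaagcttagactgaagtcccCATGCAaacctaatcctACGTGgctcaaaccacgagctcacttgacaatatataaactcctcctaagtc
OLEO1: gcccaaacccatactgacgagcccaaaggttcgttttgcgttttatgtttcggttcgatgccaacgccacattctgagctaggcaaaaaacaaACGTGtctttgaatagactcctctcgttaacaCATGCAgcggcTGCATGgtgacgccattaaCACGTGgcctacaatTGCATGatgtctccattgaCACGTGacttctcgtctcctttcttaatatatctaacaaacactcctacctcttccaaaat
AT2G42560: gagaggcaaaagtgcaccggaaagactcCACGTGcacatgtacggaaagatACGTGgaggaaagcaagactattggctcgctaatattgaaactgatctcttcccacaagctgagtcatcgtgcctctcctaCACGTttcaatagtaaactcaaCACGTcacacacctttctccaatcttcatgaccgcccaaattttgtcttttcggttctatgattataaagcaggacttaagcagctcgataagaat
SESA5 held 4 RY matches, 2 of them overlapping in CATGCATG, and 2 ABRE matches. CRA1 held 2 RY elements and no ABRE core, CRU3 held 1 and 3, OLEO1 held 3 and 5, and AT2G42560 held 5 ABRE matches and no RY element. CRU2 was the seed list member without an RY element.

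Cold and dehydration genes, many of them induced by abscisic acid in vegetative tissue, were higher in 5 of 16 and lower in 0, with a median log2 of 0.47. RAB18 (AT5G66400), a dehydrin that accumulates in seeds and under drought, measured 278 and 363 TPM in etr1-1 and 18.5, 24.1 and 139 TPM in wild type (log2 3.56, SE 0.33, adjusted p = 0.000418, and 0.00029 without replicate 3). KIN1, a small cold-induced protein, measured 60.6 and 56.8 TPM in etr1-1 and 17.1, 20.4 and 10.8 TPM in wild type. Here replicate 3 was the lowest of the wild-type libraries, and the groups were apart (log2 1.5, SE 0.20, adjusted p = 0.00298, and 0.00537 without replicate 3). Its close relative KIN2 differed by 0.89 (adjusted p = 0.00614), and fragments may be shared between them. HAI1, a phosphatase that restrains abscisic acid signalling, was at 3.57 and 3.2 TPM in etr1-1 and 0.70, 1.3 and 0.35 TPM in wild type (log2 1.17, adjusted p = 0.0242). RD29B (LTI65) was at 39.0 and 37.7 TPM against 11.6, 13.1 and 12.8 TPM (log2 1.43, adjusted p = 0.0431). The calls of HAI1 and RD29B were lost without wild-type replicate 3, at adjusted p = 0.0547 and 0.0548. RD29A, the neighbour gene of RD29B, was at 1349 and 946 TPM against 663, 521 and 308 TPM and did not pass (log2 1.00, adjusted p = 0.0608). In 14 of the 16 genes both etr1-1 libraries lay above all wild-type libraries (15.3% of all tested features did). Of the 5 calls 2 remained without etr1-1 replicate 1, 3 without etr1-1 replicate 2, 3 without wild-type replicate 1, 4 without replicate 2 and 3 without replicate 3.

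ETR1 itself gave no call, at 24.2 and 22.9 TPM in etr1-1 and 24.9, 22.5 and 19.8 TPM in wild type (log2 -0.04, SE 0.10, adjusted p = 0.883). Since the allele changes an amino acid, transcript levels cannot test the genotype label. Of 14 ethylene perception and signalling genes 4 were lower in etr1-1 and 0 higher, with a median of -0.30, and the same count was called without wild-type replicate 3. CTR1, the kinase below the receptors, measured 40.8 and 37.8 TPM in etr1-1 and 77.8, 70.1 and 51.7 TPM in wild type. The means were 39.3 ± 2.13 TPM (SD, n = 2) and 66.5 ± 13.4 TPM (SD, n = 3), and the groups did not overlap (log2 -0.88, SE 0.09, adjusted p = 0.000792, and 0.00254 without replicate 3). The call held in each fit that left out 1 wild-type library, but all of these fits keep the replicate 3 term. With no term in the 11 libraries none of the 4 was called (lowest adjusted p = 0.107). With all 13 libraries and the term none was called either (lowest adjusted p = 0.233). ETR2, a receptor whose transcript ethylene induces, measured 39.9 and 33.3 TPM in etr1-1 and 84.9, 69.7 and 60.1 TPM in wild type. The means were 36.6 ± 4.68 TPM (SD, n = 2) and 71.6 ± 12.5 TPM (SD, n = 3), with no overlap (log2 -1.01, SE 0.17, adjusted p = 0.00956, and 0.0188 without replicate 3).

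EBF2, an F-box protein that marks EIN3 for breakdown and is itself an EIN3 target, measured 117 and 112 TPM in etr1-1 and 191, 176 and 131 TPM in wild type (log2 -0.64, SE 0.09, adjusted p = 0.00477, and 0.00608 without replicate 3). ERS1, another receptor, measured 118 and 104 TPM against 174, 157 and 113 TPM. Its wild-type replicate 3 lay between the etr1-1 libraries, so the groups overlapped (log2 -0.54, SE 0.11, adjusted p = 0.025, and 0.0383 without replicate 3). EBF1, the partner of EBF2, measured 96.1 and 96.2 TPM against 122, 118 and 119 TPM and missed the threshold (log2 -0.31, SE 0.08, adjusted p = 0.0548). RTE1, which acts with ETR1, was at 9.24 and 10.9 TPM against 15.0, 11.6 and 14.2 TPM (log2 -0.40, adjusted p = 0.163), and the receptor gene ERS2 differed by -0.39 (adjusted p = 0.322). EIN3 differed by 0.07, EIL1 by -0.16, EIN2 by -0.26 and the receptor gene EIN4 by -0.29 (adjusted p = 0.807, 0.382, 0.409 and 0.475). Of the 4 called genes 3 remained without etr1-1 replicate 1, 1 (CTR1) without etr1-1 replicate 2, and 3 each without wild-type replicate 1 or 2.

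**Figure D3:**
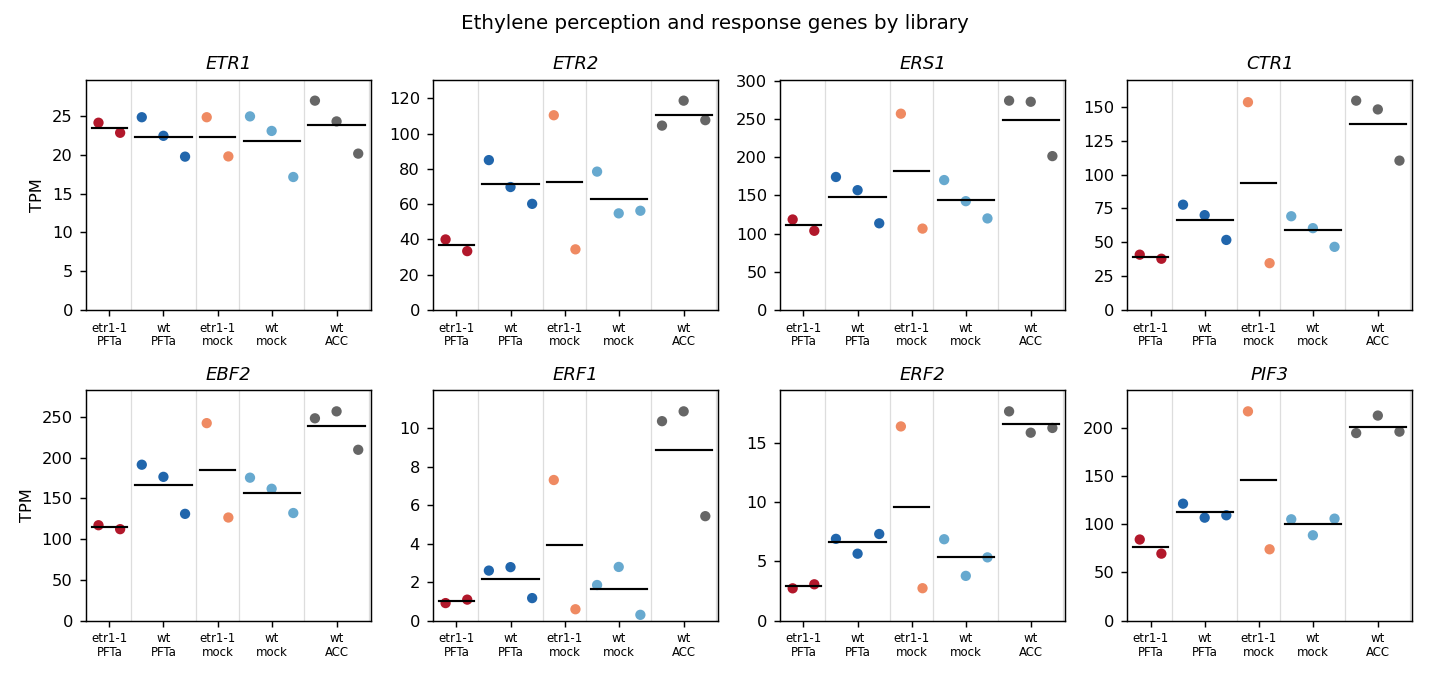
TPM of 8 ethylene perception and response genes in all 13 libraries (points, in replicate order within each group; bars are group means). CTR1 is at 40.8 and 37.8 TPM in etr1-1 and 51.7 to 77.8 TPM in wild type under PFT-alpha, etr1-1 mock 2 is at 34.5 TPM, and the library labelled etr1-1 mock 1 is at 154 TPM beside 110 to 155 TPM under ACC.

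Ethylene-induced genes were lower in 4 of 23 and higher in 0, with a median of -0.48, and 1 of the 23 lay above 0 (RAV1 at 0.02). Of all 20836 tested features 9007 lay above 0. ERF1, a transcription factor gene that EIN3 switches on, measured 0.91 and 1.09 TPM in etr1-1 and 2.60, 2.78 and 1.17 TPM in wild type (log2 -0.96, SE 0.19, adjusted p = 0.0242). ERF2 measured 2.72 and 3.06 TPM against 6.89, 5.64 and 7.30 TPM (log2 -0.94, SE 0.20, adjusted p = 0.0298). PIF3, a phytochrome-interacting transcription factor that ethylene induces in seedlings, measured 84.1 and 69.4 TPM against 121, 107 and 109 TPM (log2 -0.55, SE 0.12, adjusted p = 0.038). The groups did not overlap in any of the 3 genes, though wild-type replicate 3 came close to etr1-1 for ERF1. Of all tested features 16.7% lay below in this way. FLS2 (AT5G46330), the flagellin receptor, was the remaining call (log2 -0.74, adjusted p = 0.0402). Without wild-type PFT-alpha replicate 3 none of the 4 was called, at adjusted p = 0.0544 for ERF1, 0.0699 for ERF2, 0.0631 for PIF3 and 0.092 for FLS2, with a median of -0.45 over the list. None was called without either etr1-1 library or without wild-type replicate 1, and 1 without replicate 2. The apical hook gene HLS1 measured 32.3 and 32.0 TPM against 44.6, 39.5 and 43.0 TPM (log2 -0.38, adjusted p = 0.164), and the organ growth genes ARL, ORS1 and ARGOS differed by -0.63, -0.57 and -0.48 (adjusted p = 0.0936, 0.22 and 0.138). Genes of ethylene synthesis gave 0 calls among 13, with a median of -0.03 (0.34 in the 5 libraries alone) and AT2G19590 (ACO1), an ethylene-forming oxidase, at 6.75 and 4.95 TPM against 22.8, 12.3 and 9.30 TPM (log2 -1.34, adjusted p = 0.0904).

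The response of wild type to ACC stands beside these values. Its 6 libraries are in neither group compared, but they entered the etr1-1 fit, where they helped to set the replicate 3 term and the spread, so the calls of both fits are not independent. ACC against mock in wild type called 1124 of 20326 features (5.53%), 315 higher (1.55%) and 809 lower (3.98%). Of the 315 features higher under ACC, 44 (14.0%) were lower in etr1-1 and 10 (3.18%) higher, which is 12.9% of the lower and 2.28% of the higher etr1-1 calls among these features. Of the 809 lower under ACC, 74 (9.15%) were higher in etr1-1 and 16 (1.98%) lower, which is 16.9% of the higher and 4.69% of the lower etr1-1 calls. Among the same 20326 features 2.16% were called higher and 1.68% lower in etr1-1. CTR1 rose by 1.22 under ACC, ETR2 by 0.81, EBF2 by 0.61 and ERS1 by 0.79 (adjusted p = 0.00198, 0.0281, 0.0154 and 0.00966). In the other direction, GPRI1, GLK2 and PIF4 fell under ACC, at -1.24, -1.08 and -1.04 (adjusted p = 0.00353, 0.00704 and 0.0115), and were higher in etr1-1. SESA5 was lower under ACC, at -1.20 (adjusted p = 0.0315), and the other 10 seed storage and oil body genes were not called there.

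**Figure D4:**
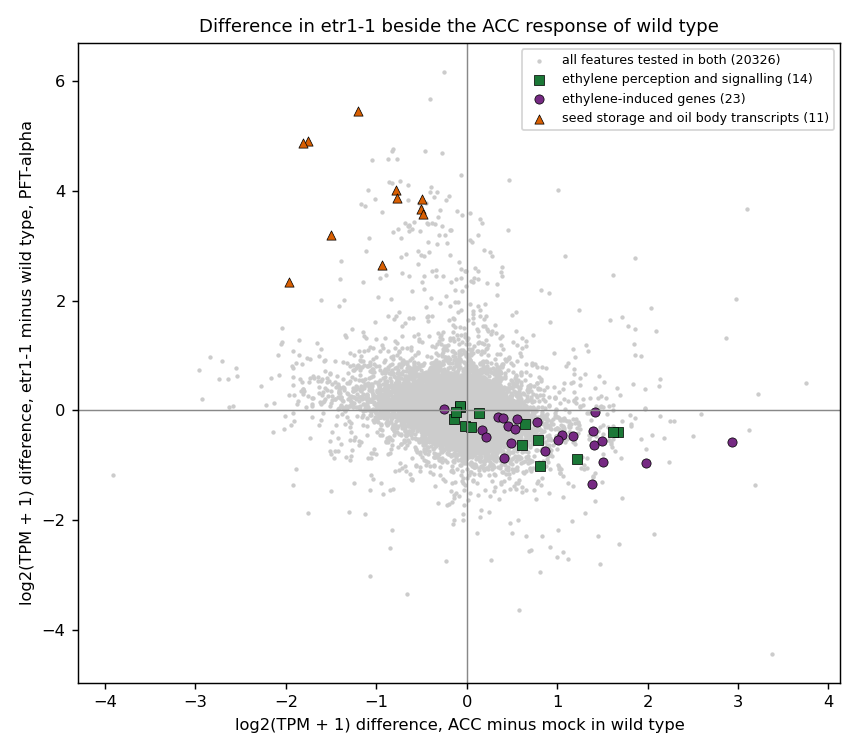
Difference between etr1-1 and wild type under PFT-alpha (vertical axis) against the difference between ACC and mock in wild type (horizontal axis), both in log2(TPM + 1), for 20326 features (grey) and 3 gene lists. Of the ethylene-induced genes 22 of 23 lie below 0 on the vertical axis, where 9007 of all 20836 tested features lie above 0. Seed storage and oil body transcripts lie above 2.

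Low oxygen genes carry plants through fermentation when respiration stops. Of 12 such genes 7 were lower in etr1-1 and 0 higher, with a median of -1.10. ADH1, the alcohol dehydrogenase, measured 58.5 and 48.6 TPM in etr1-1 and 423, 228 and 95.5 TPM in wild type (log2 -2.49, SE 0.56, adjusted p = 0.0382). AT4G33070, the pyruvate decarboxylase PDC1, measured 35.9 and 30.2 TPM against 256, 118 and 57.4 TPM (log2 -2.30, SE 0.50, adjusted p = 0.0326). HB1, a haemoglobin that scavenges nitric oxide, measured 39.1 and 23.0 TPM against 212, 139 and 43.7 TPM (log2 -2.44, SE 0.51, adjusted p = 0.0285). In each of the 3 the groups were apart, with wild-type replicate 3 nearest to etr1-1 (16.7% of all tested features lay below in this way). SUS4, a sucrose synthase, was at 1.86 and 1.72 TPM against 21.9, 9.12 and 4.52 TPM (log2 -2.58, adjusted p = 0.0362). The transcription factor gene LBD41 and the oxygen-sensing oxidases AT5G15120 (PCO1) and AT5G39890 (PCO2) differed by -0.95, -1.12 and -1.23 (adjusted p = 0.0239, 0.0468 and 0.0356). HRA1, HRE1 and SUS1 differed by -1.06, -1.06 and -1.08 and did not pass (adjusted p = 0.0692, 0.0713 and 0.222).

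Without wild-type PFT-alpha replicate 3 none of the 7 was called (adjusted p = 0.0527 to 0.097, median -1.16). None was called without etr1-1 replicate 1, etr1-1 replicate 2 or wild-type replicate 1, and 3 without wild-type replicate 2. Over all libraries, the summed level of the 12 genes was 285 and 251 TPM in etr1-1 under PFT-alpha and 224 TPM in etr1-1 mock 2. Wild type ranged from 430 to 1282 TPM under PFT-alpha, from 357 to 926 TPM in mock and from 505 to 1891 TPM under ACC, and the library labelled etr1-1 mock 1 was at 1178 TPM. The 3 wild-type groups thus each spread widely in these genes, and the part of that spread in the result was not tested.

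**Figure D5:**
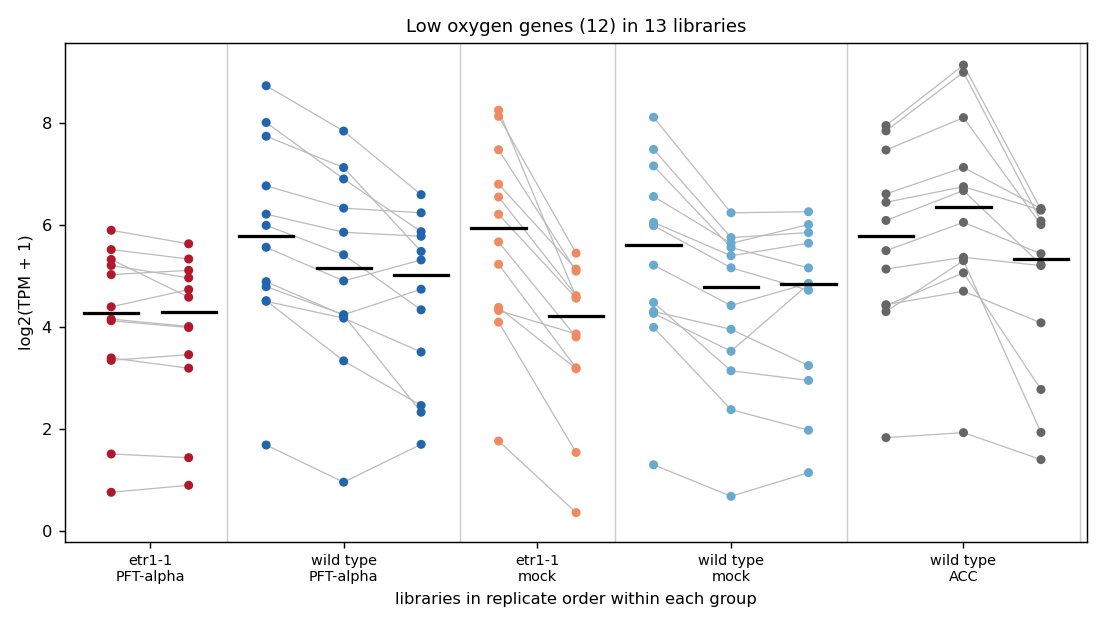
Level of 12 low oxygen genes (log2(TPM + 1)) in all 13 libraries, in replicate order within each group; grey lines join the values of a gene and black bars are the median of each library. The 2 etr1-1 PFT-alpha libraries lie together (summed TPM of 285 and 251), while wild type varies from 357 to 926 TPM in mock and from 430 to 1282 TPM under PFT-alpha.

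The paired greening regulators GLK1 and GLK2 were higher in etr1-1. GPRI1 (GLK1), which turns on chloroplast genes, measured 40.8 and 49.8 TPM in etr1-1 and 18.6, 23.99 and 29.0 TPM in wild type (log2 1.01, SE 0.15, adjusted p = 0.00534, and 0.0108 without replicate 3). Its partner GLK2 measured 54.5 and 67.7 TPM against 32.2, 34.6 and 35.7 TPM (log2 0.83, SE 0.14, adjusted p = 0.00963, and 0.0239 without replicate 3). In both the groups were apart (15.3% of all tested features lay above in this way). Of 25 antenna, Rubisco and greening genes 5 were higher and 0 lower, with a median of 0.18 that turned to -0.08 in the 5 libraries alone, and the other 3 calls were the light-harvesting genes LHCB2.1, LHCB2.2 and CAB2 (log2 1.31, 1.08 and 0.99, adjusted p = 0.0086, 0.0257 and 0.0398). LHCB2.1 measured 477 and 526 TPM in etr1-1 and 195, 185 and 600 TPM in wild type, so wild-type replicate 3 was above both etr1-1 libraries. These antenna genes have near-identical copies, and their single values are uncertain. CAB2 was not called without replicate 3 (adjusted p = 0.0927). Without etr1-1 replicate 1 or 2 there were 2 and 0 calls in the list, and without wild-type replicate 1 or 2 there were 2 and 3. PORA and PORB, which reduce protochlorophyllide, were at -0.87 and -0.60 (adjusted p = 0.125 and 0.226).

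Of 20 shade avoidance and PIF genes 3 were higher and 1 lower, with a median of 0.21 (2.42% of all tested features were higher and 1.64% lower). PIF4, a growth-promoting light-response factor, measured 20.7 and 17.0 TPM in etr1-1 and 11.4, 11.4 and 11.5 TPM in wild type (log2 0.75, SE 0.16, adjusted p = 0.0306, and 0.0651 without replicate 3). IAA29, an auxin-responsive gene that PIF factors switch on, measured 30.3 and 25.97 TPM against 18.2, 18.8 and 19.1 TPM (log2 0.66, SE 0.13, adjusted p = 0.0256, and 0.0448 without replicate 3). PIL5 (PIF1), a repressor of germination and greening in the dark, measured 49.1 and 44.7 TPM against 36.4, 34.0 and 52.1 TPM. Its groups overlapped through wild-type replicate 3 (log2 0.40, SE 0.08, adjusted p = 0.026, and 0.048 without that library). The lower member was PIF3, given above. HFR1, induced by shade, was at 183 and 150 TPM against 111, 113 and 69.5 TPM and did not pass (log2 0.61, adjusted p = 0.125). None of the 4 calls remained without either etr1-1 library or without wild-type replicate 1 or 2.

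Among growth hormone genes, 1 of 24 auxin-responsive genes was higher (IAA29) and 0 lower, with a median of 0.05, while the auxin transporter PIN3 at 0.35 and GH3.2 at -0.62 did not pass (adjusted p = 0.08 and 0.0765). Over all tested features 2.42% were higher and 1.64% lower, beside which a single call does not stand out. Of 20 gibberellin and brassinosteroid genes 3 were higher and 0 lower, with a median of 0.07. GA2OX2, which inactivates gibberellins, measured 5.90 and 5.54 TPM in etr1-1 and 2.26, 2.70 and 3.87 TPM in wild type (log2 0.89, SE 0.17, adjusted p = 0.0206, and 0.0279 without replicate 3). ATGA2OX1, of the same kind, measured 2.77 and 2.26 TPM against 0.84, 0.93 and 0.51 TPM (log2 0.99, SE 0.20, adjusted p = 0.0269, and 0.0541 without replicate 3). CPD, which makes brassinosteroids, measured 134 and 139 TPM against 103, 100 and 109 TPM (log2 0.43, SE 0.09, adjusted p = 0.0238, and 0.0469 without replicate 3). In all 3 the groups were apart, and none of the 3 calls remained without either etr1-1 library or without wild-type replicate 1 or 2. Cell wall expansion genes gave 0 calls among 20, with EXPA5 at 0.98 and EXPB1 at 0.57 (adjusted p = 0.0788 and 0.0745). Root hair genes gave 0 calls among 13, with 1 of 13 above 0 (9007 of all 20836 tested features were) and a median of -0.40. In the 5 libraries alone that median was 0.25, since the root hair level of wild-type replicate 3 then entered unadjusted.

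Of 7 tested jasmonate and defence genes 1 was higher and 1 lower, with a median of -0.17 (0.01 in the 5 libraries alone). For this list and the next, 2.42% of all tested features were higher and 1.64% lower, beside which single calls do not stand out. VSP2, a storage protein that jasmonate induces, measured 16.6 and 13.8 TPM in etr1-1 and 7.52, 6.37 and 4.46 TPM in wild type (log2 0.98, SE 0.20, adjusted p = 0.0266, and 0.0483 without replicate 3). PR4, a chitin-binding defence protein, measured 51.8 and 44.8 TPM against 83.5, 94.9 and 13.3 TPM. Wild-type replicate 3 was far below and replicates 1 and 2 above etr1-1, so the difference was -0.94 with the replicate term (adjusted p = 0.0274) and 0.01 in the 5 libraries alone. Without replicate 3 it was -0.87 (adjusted p = 0.0668). Of 21 xenobiotic detoxification genes 1 was higher, the cytochrome P450 gene CYP81D11 at 124 and 137 TPM against 77.8, 75.3 and 55.2 TPM (log2 0.81, SE 0.16, adjusted p = 0.0214, and 0.0541 without replicate 3). VSP2, PR4 and CYP81D11 were not called without either etr1-1 library or without wild-type replicate 1 or 2.

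The 12 largest lower differences held 4 low oxygen genes (SUS4, ADH1, HB1 and AT4G33070) and 8 others. AT2G16005, annotated with an MD-2-related lipid recognition domain, measured 37.2 and 34.2 TPM in etr1-1 and 235, 236 and 261 TPM in wild type. The means were 35.7 ± 2.14 TPM (SD, n = 2) and 244 ± 14.8 TPM (SD, n = 3) (log2 -2.75, SE 0.24, adjusted p = 0.000304, and 0.00133 without replicate 3). Its wild-type libraries were close together, etr1-1 mock 2 was at 32.9 TPM and the library labelled mock 1 at 245 TPM. It was the lower call of the fit on the 5 libraries alone (adjusted p = 0.0321). FTM1, a stearoyl-ACP desaturase family protein, measured 3.03 and 3.22 TPM against 15.4, 17.4 and 24.5 TPM (log2 -2.18, SE 0.28, adjusted p = 0.00238, and 0.00983 without replicate 3). AT4G07170, a non-coding RNA of 234 bases, was listed at 0 in both etr1-1 libraries and at 16.2, 8.46 and 29.6 TPM in wild type (adjusted p = 0.000304), while the etr1-1 mock libraries had 13.5 and 11.6 TPM. At so short a length 1 TPM stands for far fewer fragments than at 1500 bases, so its values are uncertain. AT1G27565 was listed at 0 in both etr1-1 libraries and in etr1-1 mock 2, and at 4.66, 4.83 and 10.7 TPM in wild type (adjusted p = 0.000248). AT1G29100, a heavy-metal-binding domain protein, was at 1.26 and 1.46 TPM against 10.4, 10.8 and 3.1 TPM (log2 -2.73, adjusted p = 0.00592). AT5G39180, a cupin family protein with near-identical relatives, differed by -1.85 (adjusted p = 0.0123). The aquaporin NIP2;1 and the RNA AT5G01555 differed by -2.57 and -2.26 (adjusted p = 0.0397 and 0.049). An antisense gene covers at least 50% of each, and both are uncertain, since strand use in the counting is not given. AT5G01555 is also short, at 246 bases. Without wild-type replicate 3, 6 of the 12 remained called (the 4 low oxygen genes, NIP2;1 and AT5G01555 did not), and 6 and 4 remained without etr1-1 replicate 1 or 2.

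The side on which the etr1-1 mock libraries lay can be described, though these libraries differed from each other. In 454 of 20836 tested features both etr1-1 PFT-alpha libraries lay above all 9 wild-type libraries by at least 2-fold in group mean of log2(TPM + 1). In 82 they lay below, and the mock libraries of etr1-1 had no part in that choice. The library etr1-1 mock 2 lay on the same side in 363 (80.0%) and 67 (81.7%), and the library labelled etr1-1 mock 1 in 25 (5.51%) and 4 (4.88%). How often each mock library lay outside the wild-type range over all tested features was not counted, so these shares have no background beside them. In 15 of the 20836 tested features all 4 etr1-1 libraries lay above all 9 wild-type libraries, by the same fold, and in 2 they lay below. The mock libraries entered the choice of these 15 and 2 features, so their side was fixed, and the following examples were picked after their values were seen. The glycine-rich protein gene GRP3S was at 8476 and 9013 TPM under PFT-alpha in etr1-1, 6130 TPM in etr1-1 mock 2, 4497 TPM in that labelled etr1-1 mock 1, and 2849 to 3967 TPM in wild type. QQS, a gene found only in Arabidopsis that affects starch content, was lower, at 11.1 and 13.6 TPM, 8.48 and 30.1 TPM in the same order, and 30.3 to 58.4 TPM in wild type. For QQS the library labelled etr1-1 mock 1 lay next to the edge of the wild-type range.

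Called features were spread over the 5 chromosomes, at 3.59 to 4.61% of the tested features of each. Within 2 Mb of ETR1 on chromosome 1, where sequence linked to the allele would lie, 25 of 734 tested features (3.41%) were called.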

How the data were processed

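The 13 libraries were grouped by their labels. The authors deposited 1 table of TPM for 33033 features, and per the submitters' processing notes the build was TAIR10 and the tools were fastp, HISAT, HISAT2, StringTie, RSEM and DESeq2, with no versions or roles. Per the labels' protocols the kit was stranded and selected polyadenylated RNA; strand use in counting is not given in the sources used here. Depth was estimated from the steps of low TPM values (tolerance 0.15, 82.5 to 86.6% of values on a step), which puts 19.4 to 29.1 fragments behind 1 TPM at a length of 1500 bases, and fewer in shorter features.

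Features under 200 bases (1734) were left out. Those with at least 1 TPM in at least 2 of the 11 fitted libraries were tested with limma 3.58.1 (R 4.3.3, trended variance) on log2(TPM + 1). The fit held 9 wild-type and 2 etr1-1 PFT-alpha libraries, a mean per group and a term for wild-type replicate 3, with 6 residual degrees of freedom. The difference is therefore set against wild type with the shift of replicate 3 taken out. Adjusted p is Benjamini-Hochberg over all tested features. ACC against mock was fitted the same way on 6 libraries. Named features were the 12 largest differences in each direction among called features without overlap and with a group mean of at least 5 TPM, the ethylene genes, and up to 4 members of each other list by p; called members beyond these are named too. List members were matched by symbol and locus (250 of 252 entries). The series text calls replicates biological, but nothing names separate cultures, and p-values measure the spread between these libraries. Members, lists and fit were chosen with earlier results of these data known. Scripts were tested on simulated data. Tables used Python 3.11.15, numpy 2.4.6 and pandas 2.3.3, and plots matplotlib 3.10.9. Upstream sequence and positions are RefSeq's TAIR10.1.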

Additional observations from a re-analysis of the deposited data

How the results depend on the processing

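The count of 846 calls depended on how the replicate 3 shift and the spread were handled. It was 7 in the 5 libraries alone, 96 in the same 11 libraries with no replicate term, 9 with all 13 libraries and the term, 0 with all 13 and no term (1422 at an unadjusted p under 0.05), 2812 with library weights and 223 to 1193 when 1 library was left out. For ACC vs mock in wild type, 1124 calls became 90 with no replicate term, 671 with a replicate block and 234 to 1138 when 1 library was left out. No call shared with another setting had the opposite sign. For etr1-1 against wild type, no gene list member was called in the fits with no replicate term or with all 13 libraries. A replicate block gave 643 calls in etr1-1, 628 of them among the 846. Under PFT-alpha the differences of replicate 1 minus replicate 2 in etr1-1 and in wild type had a correlation of 0.091 across features. Replicate numbers 1 and 2 were therefore not taken to pair the libraries of these groups. Signs turned in 4 named genes. RAV1 AT1G13260 (0.02) was -0.011 with library weights and -0.072 to 0.121 when 1 library was left out. ETR1 (-0.04) was 0.0737 with no replicate term in 5, 11 or 13 libraries and 0.0047 with library weights. PR4 (-0.94) was 0.0116 in those 3 fits with no term. EIN3 (0.07) was -0.0033 without wild-type PFT-alpha replicate 3, and reached 0.152 without wild-type PFT-alpha replicate 1. The cause was not tested. With 2 etr1-1 libraries small differences could be missed, and the spread used in the fit came mostly from the wild-type libraries.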
